A study of Mus musculus with 82 samples.

Results

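The neuronal plasticity miRNAs are 8 microRNAs chosen by name, most of them well known from neurons: miR-124 (probe set mmu-miR-124_st), miR-128 (mmu-miR-128_st), miR-132 (mmu-miR-132_st), miR-137 (mmu-miR-137_st), miR-138 (mmu-miR-138_st), miR-212-3p (mmu-miR-212-3p_st), miR-383 (mmu-miR-383_st) and miR-488 (mmu-miR-488_st). They were taken without their star strands (the strand of a hairpin that the older nomenclature takes as the less abundant one), and they are 8 of the 1111 mouse mature probe sets of the array. The extended amygdala, a forebrain region tied to stress and alcohol drinking, was taken from female C57BL/6J mice 2 months of age. Alcohol mice had a bottle of 20% ethanol beside one of water for 24 h a day over 30 days, and control mice had water in both bottles. From each mouse, synaptoneurosomes (SN), sealed synaptic endings with nearby material that pass fine filters, were collected beside total homogenate (TH), a share of the same homogenate set aside unfiltered. The miRNAs were measured on 40 Affymetrix arrays, an SN and a TH array from each of 12 control and 8 alcohol mice, as log2 values.

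A microRNA is cut from a hairpin precursor by Drosha and Dicer, and one strand is loaded into an Argonaute protein. Its seed, bases 2 to 8 from the 5′ end, pairs with matching sites in messenger RNAs and lowers their stability or translation. In neurons part of this takes place near synapses, where local translation changes with activity. miR-124 is the classic miRNA of differentiated neurons, miR-132 and miR-212 are induced by activity through the transcription factor CREB and act on dendrite growth, miR-138 acts on dendritic spine size, miR-137 acts on presynaptic vesicle genes, and miR-128 restrains neuronal excitability.

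The mature sequences show which members can reach the same sites. Of the 8 members 6 were matched to RefSeq (GRCm38.p6), and miR-124 and miR-383 are named only. Each sequence is written 5′ to 3′ with its seed in capitals. The array names without an arm were taken as the 3p strand for miR-128, miR-132, miR-137 and miR-488 and as the 5p strand for miR-138.
miR-132: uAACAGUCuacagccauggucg
miR-212-3p: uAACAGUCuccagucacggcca
miR-128: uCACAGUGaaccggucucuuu
miR-137: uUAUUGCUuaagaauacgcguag
miR-138: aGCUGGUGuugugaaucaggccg
miR-488: uUGAAAGGcuguuucuugguc

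miR-132 and miR-212-3p carry the same seed, AACAGUC, and are identical at 17 of 22 positions counted from the 5′ end. No other mature name of the RefSeq table has that seed, and none shares the seed of miR-128, miR-137, miR-138 or miR-488. The pair lies on the plus strand of chromosome 11, miR-212-3p at chr11:75173443-75173464 and miR-132 at chr11:75173723-75173744. There are 203 bases between the hairpins, and no other RefSeq gene spans either. miR-128 is made from a hairpin within R3hdm1 (chr1:128202404-128202424, plus strand) and from one within Arpp21 (chr9:112118644-112118664, minus strand). miR-137 lies at chr3:118433901-118433923 on the plus strand, where no other RefSeq gene spans the hairpin. miR-138 comes from chr9:122682898-122682920, where no other RefSeq gene spans the hairpin, and from chr8:94324312-94324334 within Nup93, both on the plus strand. miR-488 lies at chr1:158505689-158505709 on the plus strand within Astn1, a gene of neuronal migration, and the miR-383 hairpin lies within Sgcz. The array cannot tell apart copies with the same mature sequence.

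The 40 arrays were alike, with a correlation between any 2 of them of 0.960 to 0.988 over all probe sets and array medians of 0.82 to 1.00. Of the members, 7 had a mean of at least 2 over all arrays, as did 364 of all 1111 probe sets, and miR-488 did not. miR-488 averaged 0.71 and lay below the array median on 28 of 40 arrays, so its level cannot be told from background. miR-124 averaged 13.40 with an SD of 0.041 over the 40 arrays, and its own highest value, 13.50, was the highest of the table. Whether the array was near saturation there was not tested, so the small differences of miR-124 are not read as stability. Of 8 listed neuron marker mRNAs 5 were measured in such fractions of control mice (11 pairs), since the array probes of Snap25 and Nefl were detected on 0 arrays and Rbfox3 had no probe. Of the 5, 1 rose and 1 fell. Of all 17820 probes in that comparison 39.5% had a limma adjusted p under 0.05, 18.9% higher and 20.6% lower in SN. The markers were thus called at about the share of all probes. Camk2a, a kinase mRNA carried into dendrites, rose by 0.63 in SN (SE 0.09, limma adjusted p = 0.000171), and Stmn2, of growing axons, fell by 0.35 (SE 0.04, limma adjusted p = 2.3e-05). Syt1 at -0.14, Gad1 at -0.04 and Gad2 at -0.09 did not pass, and the median of the 5 was -0.09.

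**Figure D1:**
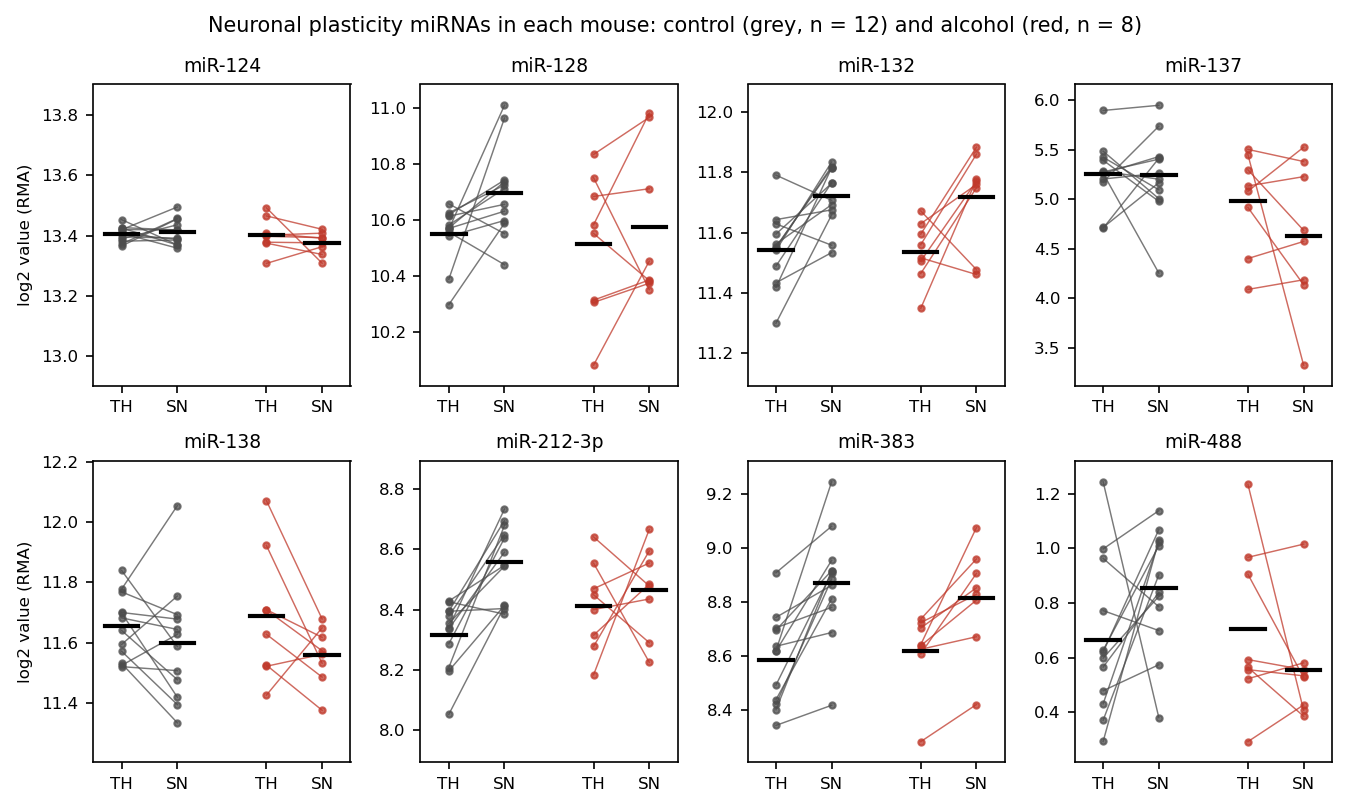
Log2 values of each member in TH and SN, with 1 line per mouse (grey, 12 control mice; red, 8 alcohol mice) and black bars at the group means. Each panel has its own range; miR-383 is higher in SN in all 20 mice, miR-124 stays near 13.4, and miR-488 stays near the bottom of the scale.

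The first comparison asked which members were more or less abundant in SN than in TH of control mice. miR-383 and miR-212-3p rose in SN, by 1.22-fold and 1.18-fold, and no member fell. Of all probe sets, 69 of 1111 (6.21%) passed an adjusted p of 0.05 (limma with the mouse as a block, Benjamini-Hochberg adjustment over all 1111), 2.61% higher and 3.6% lower in SN. The members' differences ran from -0.06 for miR-138 to 0.29 for miR-383 on the log2 scale, 6 of 8 were above 0, and their median was 0.16, against 0.03 over all probe sets. In fractions of whole tissue, more structures that hold an RNA and more RNA in each of them cannot be told apart.

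miR-383, known largely from gonadal cells and the member least tied to neurons by earlier work, gave the clearest difference. In control mice its SN values ran from 8.42 through a median of 8.90 to 9.25, and its TH values from 8.34 through 8.62 to 8.91. The ranges overlapped, but the SN value was above the TH value in each of the 12 mice, by 0.05 to 0.63. The mean difference was 0.29 (SE 0.07, limma adjusted p = 0.0299). The exact sign-flip permutation test over the 12 pairs gave an unadjusted two-sided p of 0.000488, the smallest it can give. The adjusted call was narrow: leaving out 1 mouse at a time gave adjusted p-values of 0.0276 to 0.0670, past the threshold in 5 of 12 runs and not without control mouse 1, 2, 3, 5, 6, 7 or 11.

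miR-212-3p, one of the activity-induced pair, ranged in control SN from 8.38 through a median of 8.57 to 8.73 and in control TH from 8.05 through 8.35 to 8.43. SN was above TH in 11 of 12 mice, and 8 of the 12 SN values lay above every TH value. The difference was 0.24 (SE 0.07, limma adjusted p = 0.0422, exact sign-flip unadjusted p = 0.0015). This call also lay close to the threshold. With 1 mouse left out the adjusted p ran from 0.0388 to 0.0979 and passed without control mouse 8 or 9 alone, and after quantile normalization it was 0.0507.

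miR-132, which shares the seed and the locus of miR-212-3p, lay at 11.53 through 11.74 to 11.83 in control SN and at 11.30 through 11.55 to 11.79 in control TH. SN was higher in 10 of 12 mice. Its difference of 0.18 (SE 0.07) did not pass (limma adjusted p = 0.167), but did with a trended and robust variance prior (adjusted p = 0.0155). miR-128, a brain-enriched miRNA, ran from 10.44 through 10.68 to 11.01 in SN and from 10.30 through 10.57 to 10.66 in TH of control mice. Its difference of 0.15 (SE 0.07, limma adjusted p = 0.352) was above 0 in 10 of 12 mice and did not pass.

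The other members gave no call. miR-124 lay at 13.36 through 13.41 to 13.50 in control SN and at 13.37 through 13.41 to 13.45 in control TH, a difference of 0.01 (95% confidence interval -0.11 to 0.13). miR-138, the spine-size miRNA, lay at 11.33 through 11.61 to 12.05 in SN and at 11.52 through 11.66 to 11.84 in TH. Its difference of -0.06 (interval -0.20 to 0.09) had the opposite sign to that of miR-383, with SN higher in 3 of 12 mice. miR-137, the miRNA of presynaptic vesicle genes, varied more, from 4.26 through 5.23 to 5.95 in SN and from 4.71 through 5.27 to 5.90 in TH. Its difference was -0.01 with an interval of -0.30 to 0.27. miR-488, near background, differed by 0.19 (SE 0.12, limma adjusted p = 0.476).

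**Figure D2:**
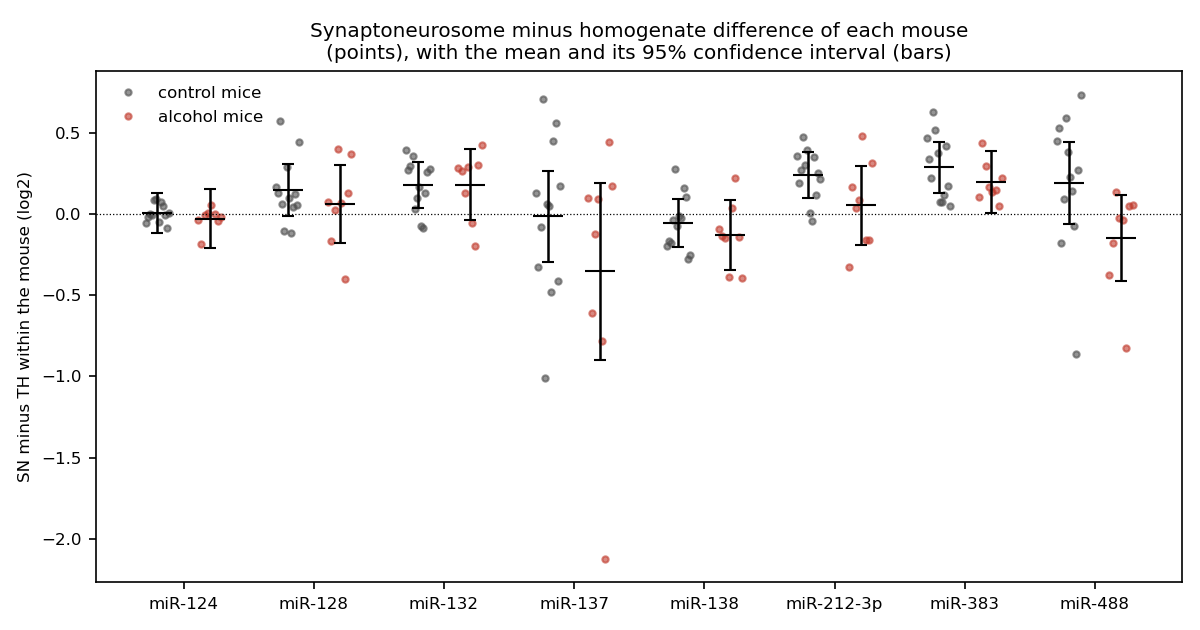
SN minus TH difference (log2) of each mouse for the 8 members, grey for 12 control and red for 8 alcohol mice, with the mean and its 95% confidence interval in black. All 20 points of miR-383 lie above 0, and miR-137 of alcohol mouse 6 lies at -2.12.

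**Figure D3:**
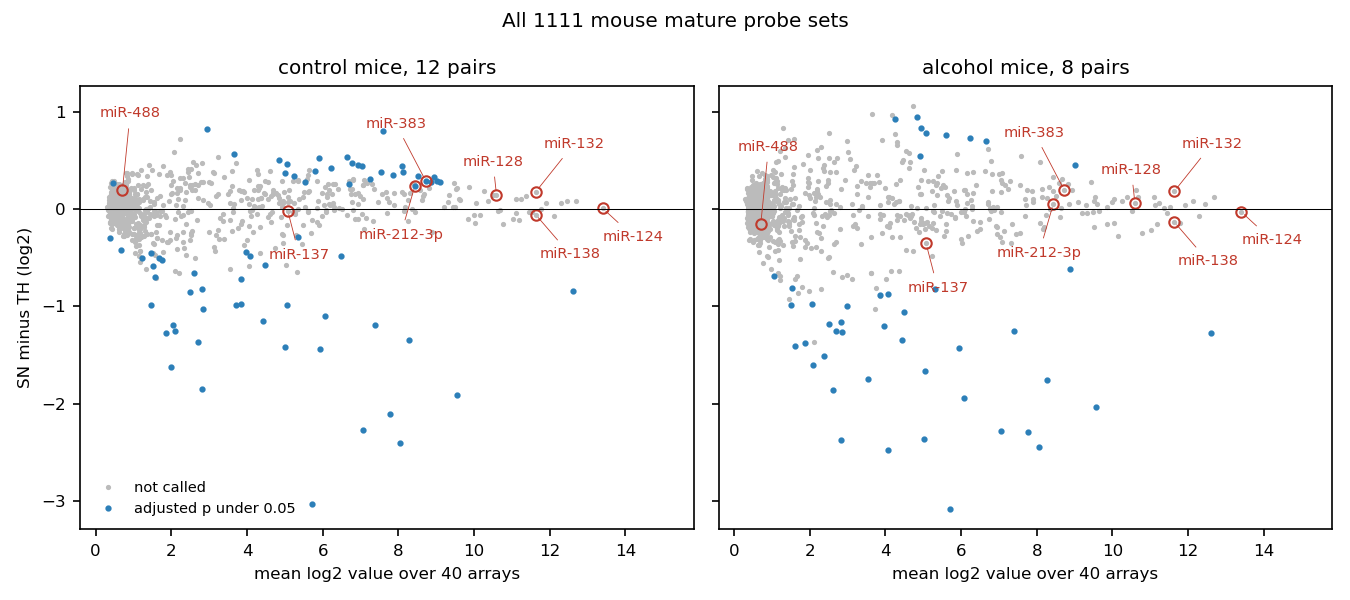
SN minus TH (log2) against the mean log2 value over 40 arrays for all 1111 probe sets, in control mice (left) and alcohol mice (right), with members circled in red and probe sets with an adjusted p under 0.05 in blue. Members lie between -0.35 and 0.29, while called probe sets reach -3.03 in control mice.

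In alcohol mice no member was called between SN and TH, while 45 of all 1111 probe sets were (4.05%; 0.81% higher and 3.24% lower in SN). The members' differences ran from -0.35 for miR-137 to 0.20 for miR-383, with 4 of 8 above 0 and a median of 0.01 against -0.0019 over all probe sets. miR-383 ran from 8.42 through 8.84 to 9.08 in SN and from 8.28 through 8.64 to 8.74 in TH. SN was above TH in all 8 mice, by 0.05 to 0.43, and the mean difference was 0.20 (SE 0.09, limma adjusted p = 0.339). The exact sign-flip test gave an unadjusted p of 0.0078, the smallest that 8 pairs allow.

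miR-132 had nearly the same difference in alcohol mice as in controls, 0.18 (SE 0.10, limma adjusted p = 0.481), with 11.46 through 11.77 to 11.88 in SN and 11.35 through 11.54 to 11.67 in TH. miR-212-3p differed by 0.05 (SE 0.11, limma adjusted p = 0.905), with SN higher in 5 of 8 mice. Its SN values ran from 8.23 through 8.48 to 8.67 and its TH values from 8.18 through 8.42 to 8.64.

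miR-137 had the lowest mean difference in alcohol mice, -0.35 (SE 0.25, limma adjusted p = 0.593), and it rested on 1 mouse. Alcohol mouse 6 had 3.33 in SN and 5.45 in TH. Without it the mean difference was -0.10. Over all 8 mice its SN values ran from 3.33 through 4.63 to 5.53 and its TH values from 4.09 through 5.11 to 5.50.

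miR-138 ran in alcohol mice from 11.38 through 11.57 to 11.68 in SN and from 11.43 through 11.67 to 12.07 in TH. SN was higher in 2 of 8 mice, and the difference was -0.13 (SE 0.10, limma adjusted p = 0.627). miR-128 spread more widely than in controls, from 10.35 through 10.42 to 10.98 in SN and from 10.08 through 10.57 to 10.83 in TH, with a difference of 0.06 (SE 0.11). That spread was an SD of 0.26 in TH, against 0.10 in control TH, and the 2 SDs were not tested against each other. miR-124 lay at 13.31 through 13.38 to 13.42 in SN and at 13.31 through 13.40 to 13.49 in TH, a difference of -0.03 (SE 0.08). miR-488 differed by -0.15 (SE 0.12) near background.

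Whether the SN minus TH difference itself changed with alcohol was tested on the differences of the 20 mice. No member and none of the 1111 probe sets passed (0%; 86 probe sets had an unadjusted limma p under 0.05). miR-212-3p gave -0.19 (95% interval -0.42 to 0.05, unadjusted p = 0.112, limma adjusted p = 0.708). miR-383 gave -0.09 (interval -0.30 to 0.12) and miR-132 gave 0.00 (interval -0.21 to 0.22). The call in control mice and its absence in alcohol mice therefore do not show a difference between the groups of mice.

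A fit to all 20 pairs together was added after the values had been seen. It called 107 of 1111 probe sets (9.63%; 4.14% higher and 5.49% lower in SN) and 2 members, both higher. miR-383 rose by 0.25 (SE 0.05, limma adjusted p = 0.00103), higher in SN in 20 of 20 mice. miR-132 rose by 0.18 (SE 0.05, limma adjusted p = 0.0209), higher in 16 of 20. miR-212-3p, at 0.17 (SE 0.06, limma adjusted p = 0.0719), was higher in 16 of 20 mice and did not pass in that fit.

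The comparison of alcohol with control mice asked whether 30 days of drinking moved the members within a fraction. In SN no member and none of the 1111 probe sets passed (0%; 65 had an unadjusted limma p under 0.05), and the same held in TH (0%; 77 unadjusted). On the deposited scale all 8 members had a lower mean in SN of alcohol mice than of controls, though miR-132, at -0.00, turned to 0.01 after median centring and 0.03 after quantile normalization. The deposited values had a median difference of -0.07 against -0.02 over all probe sets. In TH 4 of 8 were lower, with a median of 0.02 against 0.01.

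miR-137 had the largest difference among the members in SN. It ran from 3.33 through 4.63 to 5.53 in alcohol SN, against 4.26 through 5.23 to 5.95 in control SN. Of the 8 alcohol mice 6 lay below the control median and 3 below every control mouse. The difference was -0.61 (95% interval -1.11 to -0.11, unadjusted p = 0.0192, limma adjusted p = 0.773, exact permutation unadjusted p = 0.0278). Without alcohol mouse 6 it was -0.43. In TH miR-137 ran from 4.09 through 5.11 to 5.50 in alcohol mice and from 4.71 through 5.27 to 5.90 in controls, a difference of -0.27 (interval -0.63 to 0.09, limma adjusted p = 0.742). Its means ordered as control TH (5.26), control SN (5.24), alcohol TH (4.99) and alcohol SN (4.63), with each neighbouring pair closer than the SD of either group.

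miR-488 was 0.39 through 0.53 to 1.01 in alcohol SN and 0.38 through 0.87 to 1.14 in control SN, with 7 of 8 alcohol mice below the control median. Its difference of -0.30 (SE 0.10, unadjusted p = 0.0077, limma adjusted p = 0.773) lay at a level near background. For the others the intervals bound any change in SN: -0.25 to 0.07 for miR-212-3p, -0.26 to 0.15 for miR-383, -0.16 to 0.15 for miR-132, -0.33 to 0.09 for miR-128 and -0.22 to 0.14 for miR-138. In TH the same intervals were -0.05 to 0.24 for miR-212-3p, -0.14 to 0.21 for miR-383, -0.15 to 0.14 for miR-132, -0.22 to 0.15 for miR-128 and -0.14 to 0.21 for miR-138. For miR-124 they were -0.15 to 0.08 in SN and -0.11 to 0.10 in TH.

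**Figure D4:**
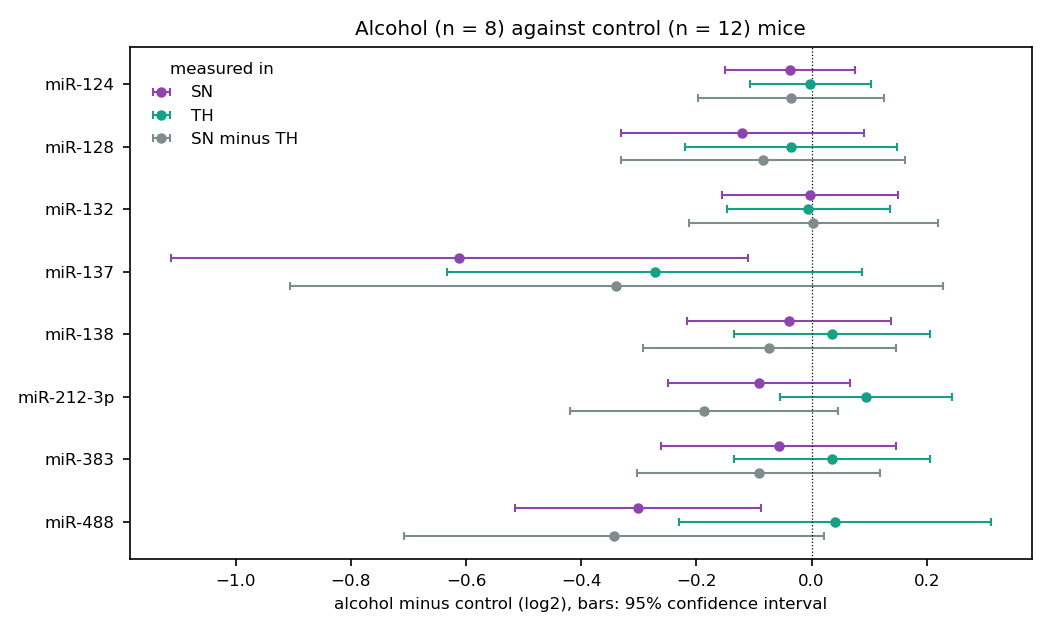
Alcohol minus control difference (log2) of each member in SN (purple), in TH (green) and in the SN minus TH difference (grey), with 95% confidence intervals from 8 alcohol and 12 control mice. The SN intervals of miR-137 (-1.11 to -0.11) and miR-488 lie below 0 before adjustment; neither passed the adjusted test.

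The other strands of the same hairpins were read next, since each hairpin gives rise to both. In control mice miR-138-1-star rose by 0.26 in SN (SE 0.07, limma adjusted p = 0.0408, higher in 11 of 12 mice), and miR-138-2-star stood at 0.23 (SE 0.07, limma adjusted p = 0.0789, 10 of 12), while miR-138 itself was at -0.06. In all 20 mice miR-138-2-star rose by 0.21 (SE 0.06, limma adjusted p = 0.0195), miR-138-1-star was at 0.18 (SE 0.07, limma adjusted p = 0.109) and miR-138 at -0.09 (SE 0.05, limma adjusted p = 0.390). The difference between the strands was not tested. miR-212-5p, the partner of miR-212-3p, was at 0.05 (SE 0.08) in control and at -0.18 (SE 0.11) in alcohol mice. miR-383-star, the partner of miR-383, was at -0.06 (SE 0.15) and -0.30 (SE 0.22), at a low level with group means of 2.07 to 2.39. The other strands of miR-124, miR-128, miR-132, miR-137 and miR-488 gave no call in either group of mice. Group means were also low for the star strands of miR-128, 1.64 to 2.44, and near background for miR-488-star, 0.50 to 0.61. At such levels the lack of a call says little.

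One strand stood out within a fraction without passing. miR-132-star averaged 3.59 in TH of alcohol mice and 4.47 in TH of controls, a difference of -0.88 (SE 0.31, unadjusted p = 0.0093, limma adjusted p = 0.512). Alcohol mouse 7 lay at 1.48, and the other alcohol mice ran from 2.86 to 4.91. miR-132 itself differed by -0.01 (SE 0.07) in the same arrays. The SN minus TH difference of miR-132-star was 0.77 (SE 0.33, limma adjusted p = 0.316) in alcohol mice and -0.05 (SE 0.09) in controls. Its change with alcohol was 0.82 (SE 0.32, limma unadjusted p = 0.0164, adjusted p = 0.529). Alcohol mouse 7 had the highest of these differences, 3.19.

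**Figure D5:**
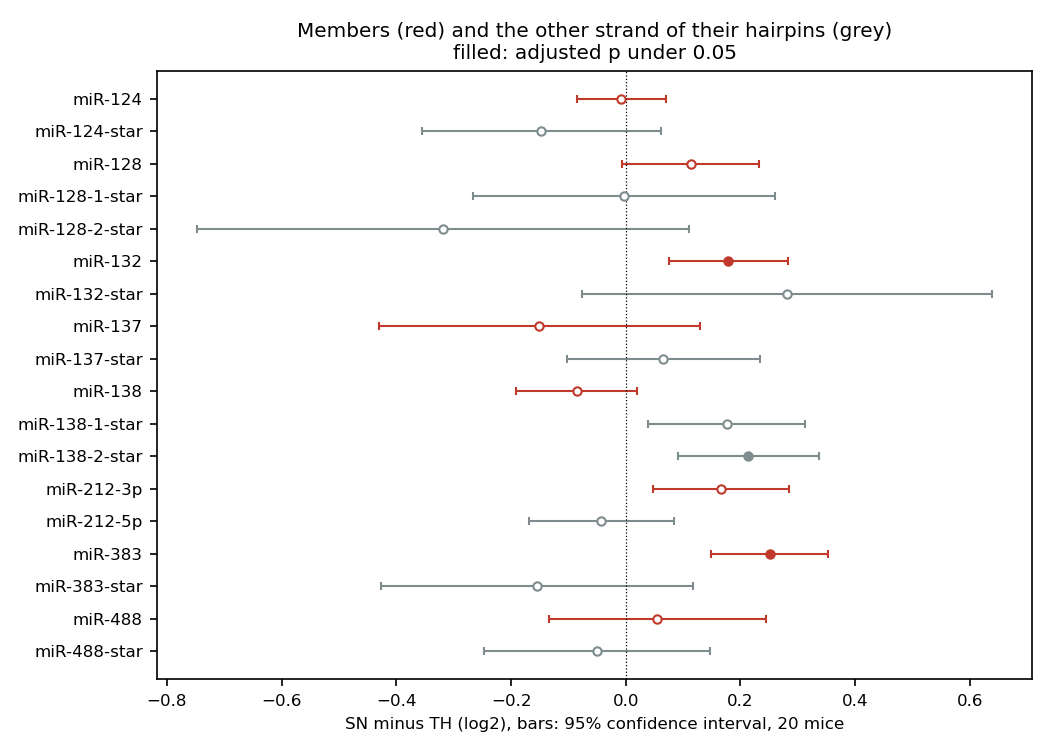
SN minus TH (log2) over all 20 mice for the members (red) and the other strand of their hairpins (grey), with 95% confidence intervals; filled points have an adjusted p under 0.05. miR-132, miR-383 and miR-138-2-star are filled, and miR-138 lies on the other side of 0 from both of its star strands.

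Across mice, no relation between the neighbours miR-132 and miR-212-3p passed after adjustment. Over all probe sets, SN and TH deviations of the same mouse correlated by a median of only 0.06. The part of array noise in the spread between mice was not tested, so a shared change could go unseen. In TH the Pearson correlation over 20 mice was 0.39 (permutation p = 0.0871, adjusted over the 3 relations computed 0.261) and Spearman's rank correlation was 0.52 (permutation p = 0.0205, adjusted 0.0615). The Pearson correlation was 0.51 within control and 0.33 within alcohol mice, and 0.48 without the 2 mice farthest from the median. In SN r was -0.08 (permutation p = 0.739) and Spearman's correlation -0.12 (permutation p = 0.624), with r of -0.22 without the 2 farthest mice. For the SN minus TH difference r was 0.11 (permutation p = 0.636) and Spearman's correlation 0.09 (permutation p = 0.709), with r of 0.01 without the 2 farthest mice.

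The probe sets whose SN minus TH difference varied most like a member's over the 20 mice are given as a description. They share the arrays, so that a common shift of an array enters each value. miR-383 was most like miR-342-5p (r = 0.74) and then miR-141 (0.73), the latter with a mean near background of 0.61. miR-212-3p was most like miR-505-5p (0.82) and miR-125a-3p (0.74). miR-132 was most like let-7f (0.75) and miR-495 (0.74), and miR-128 like miR-495 (0.80) and miR-30b (0.75). miR-137 was most like miR-218 (0.79), another neuronal miRNA, and miR-146b (0.78). miR-138 was most like miR-103 (0.84) and miR-31 (0.77), miR-124 like miR-487b (0.70) and miR-298 (0.69), and miR-488 like miR-3110 (0.78) and miR-106b (0.67). No member was the nearest or second nearest of another.

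Of 20 other miRNAs known from neurons, 2 rose in SN of control mice, miR-495 by 0.53 (SE 0.12, limma adjusted p = 0.013) and miR-376a by 0.48 (SE 0.09, limma adjusted p = 0.004), and 0 fell. Both belong to the large imprinted cluster of the Dlk1-Dio3 region. The list's median was 0.11 and its lowest value -0.18 for miR-1224. In alcohol mice 0 of the 20 were called, with a median of -0.02.

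Some markers of other cells moved more than any member. Of 10 vessel and blood miRNAs 4 fell in SN of control mice, with differences of -2.11 for miR-126-3p, -2.27 for miR-143, -2.41 for miR-145 and -3.03 for miR-150 on the log2 scale. The log2 of the summed level of all 10 was 8.16 to 8.79 in control SN and 10.32 to 11.10 in control TH, with 4 of the 10 below the array median. The other 6 ran from -0.16 to 0.22 and did not pass, and the median of the 10 was -0.09. In alcohol mice the same 4 were called, at -2.29, -2.28, -2.45 and -3.08. Of 8 glial miRNAs 3 rose in control mice, miR-219-3p by 0.42, miR-338-5p by 0.46 and miR-146a by 0.50. The other 5 ran from -0.10 for miR-23a to 0.25 for miR-219-5p and did not pass. The summed level overlapped between SN (9.75 to 10.33) and TH (9.92 to 10.31). That sum mostly follows miR-23a, whose mean level was 9.85, against 6.23 for the next highest, miR-219-3p. It therefore says little about the 3 that rose. In alcohol mice the same 3 glial miRNAs were called at 0.73, 0.78 and 0.95, with a list median of 0.50 against 0.18 in controls, and none of the 8 passed the test of the difference between the groups of mice. None of 9 choroid plexus miRNAs passed, and their summed level overlapped too. The part of these shifts in the values of miR-383 and miR-212-3p was not tested.

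Messenger RNA of SN and TH was read for genes that make, host or are targeted by the members, over 11 control pairs. The authors titled the TH mRNA arrays of controls 11 and 12 as outliers and left them out of these tables, while the miRNA arrays with those numbers stayed in the 12 pairs above. Without control mouse 11 the adjusted p of miR-383 was 0.0664 (limma), and without control mouse 12 it was 0.0355. In that comparison 39.5% of 17820 probes passed (18.9% higher and 20.6% lower in SN), so that a call for a single gene is common. Of 21 listed genes of the miRNA machinery 20 were measured, 5 rose and 0 fell, with a median of 0.06 against 0.00 over all probes. Ddx6, a helicase of processing bodies, rose from 9.47 in TH to 9.85 in SN (0.37, SE 0.06, limma adjusted p = 0.0004). Ago2, the Argonaute protein that cuts its targets, rose by 0.36 (SE 0.06, limma adjusted p = 0.0007), though another Ago2 probe stood at 0.03. Pum2, an RNA-binding repressor of translation, rose by 0.22, Dicer1 by 0.17 and Tsn by 0.08, with another Tsn probe at -0.02.

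Of 7 names listed as hosts of a member, 3 were measured. The list did not include Nup93, which holds a miR-138 hairpin, or Mir124-2hg, which holds a miR-124 hairpin. It also left out Gm37679, which spans the miR-488 hairpin beside Astn1. Arpp21, which holds a miR-128 hairpin and encodes a phosphoprotein of striatal neurons, fell by 0.28 (SE 0.06, limma adjusted p = 0.0030), though another of its probes stood at -0.02. R3hdm1, the other host, was at 0.04 (SE 0.11), and Astn1, host of miR-488, at 0.11 (SE 0.05, limma adjusted p = 0.103). Mature miR-128 stood at 0.15 in the same comparison and was not called.

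Messenger RNAs that the literature reports as targets did not share a direction. For miR-124, 9 of 12 were measured, 4 rose and 1 fell: Sox9, which in adult brain marks astrocytes, rose by 0.64 (SE 0.06), Vamp3 by 0.36 and Creb1 by 0.09, Ctdsp1 by 0.08, and the immediate early gene Egr1 fell by 0.28. For miR-137, 8 of 10 were measured and 3 rose, Tcf4 by 0.26, Ezh2 by 0.14 and Mib1 by 0.12, while the presynaptic genes Cplx1 and Nsf fell by 0.26 and 0.23, with another Nsf probe at 0.02. For the seed of miR-132 and miR-212-3p, 5 of 7 were measured, Arhgap32, which encodes the dendritic GTPase regulator p250GAP, rose by 0.16 (SE 0.05, limma adjusted p = 0.0209), and 0 fell. Neither of the 2 listed targets of miR-138, Lypla1 at -0.04 and Sirt1 at -0.03, passed. The mRNA alcohol comparisons called none of 17514 probes in SN (0%; 1878 with an unadjusted limma p under 0.05) and none of 18318 in TH (0%; 571 unadjusted), so that no host, machinery or target gene passed.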

How the data were processed

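The deposited miRNA log2 values came from RMA (oligo and limma are also named in the submitters' processing notes, without versions). They were used as they are, without detection calls. The mRNA values are the authors' deposited normalized log2 tables (the notes name lumi). The deposited bead signal intensity, with its detection p-value, served 1 alternative and the counts of arrays with detection. Fits used limma 3.58.1 in R 4.3.3 (lmFit, eBayes, Benjamini-Hochberg adjustment over all probe sets or probes) with the package data.table (version 1.17.8). They were tested on simulated data with independent noise on each array. Those data held no effect of the mouse, so the gain from pairing was not checked. The mouse was a block for SN against TH, since both fractions came from 1 homogenate per the labels' protocols. Deviations of the 2 arrays of a mouse correlated by -0.20 to 0.25 (median 0.06). Old array symbols were updated through RefSeq names, and genes were read at the probe of highest mean level. Named were all members, their other strands, seed partners, the 2 most alike probe sets, and passing or extreme members of lists. Members and lists were chosen with earlier results of these data known, and 2 listed genes are not reported here. Mice are the replicates, and the number of arrays limits the precision. Sequences came from RefSeq. Drawing used matplotlib 3.10.9 and pandas 2.3.3 under Python 3.11.15.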

Additional observations from a re-analysis of the deposited data

Results flagged for a closer look

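In 54 groups of 8 mice tested, 3 values lay far from the rest of their group, and chance alone sets apart about 1 group in 20. miR-383 in TH of alcohol mouse 5 was 8.28, while the other 7 ran from 8.61 to 8.74; its SN value was also the lowest of the alcohol mice, and its SN minus TH difference of 0.14 lay within the others' range. miR-124 had an SN minus TH difference of -0.18 in alcohol mouse 2, against -0.04 to 0.06 in the others. miR-488 in SN of alcohol mouse 7 was 1.01, against 0.39 to 0.58, at a level near background.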

How the results depend on the processing

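Of the 2 members called in control mice, both were called after median centring, with the mean filter, without star strands and with no replicate block. Quantile normalization left 1 (miR-383), and the trended and robust prior gave 3. Of the probe sets kept, these fits called 69, 77, 56, 75, 63 and 70 in that order, against 69 in the main fit. The mean filter kept 364 probe sets, the fit without star strands 779 and the others 1111. Leaving out 1 control mouse gave 0 to 2 members and 42 to 68 of all 1111 probe sets. The exact permutation test, which was not run over all probe sets, gave 4 members without adjustment. Of all 1111 probe sets 180 had an unadjusted limma p under 0.05 in that comparison. In alcohol mice 0 were called under every planned fit, including no replicate block, and 2 by the exact permutation test without adjustment. There 159 of 1111 probe sets had an unadjusted limma p under 0.05. The fit to all 20 pairs, which pools 12 control and 8 alcohol mice, called 2 members and is not a result of alcohol mice alone. For alcohol against control in SN, 2 passed the unadjusted exact permutation test, where 65 of 1111 probe sets had an unadjusted limma p under 0.05. In that comparison 0 passed in any limma fit, the replicate block on title numbers (0 called) included. The uncalled miR-132 difference in SN turned from -0.00 to 0.01 after median centring and 0.03 after quantile normalization, and reached 0.034 with 1 mouse left out; that of miR-138 reached 0.0031. At the probe of lowest level, 2 mRNA differences turned sign: Tsn to -0.0206 and Nsf to 0.0197. No detection calls were used for the miRNAs, so that levels near background, such as that of miR-488, have no stated limit.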
